A study of Mus musculus with 30 samples.

Results

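GDF5, a secreted ligand of the bone morphogenetic protein (BMP) family, was followed together with 9 other genes of the BMP pathway in the extensor digitorum longus (EDL) muscle of mice with experimental autoimmune encephalomyelitis (EAE). The 10 genes (GDF5, BMP4, NOG, BMPR1A, SMAD1, SMAD9, SMAD6, ID1, ID2 and ID3) were taken by symbol from the 21073 genes of the expression table, and each was found once. They were chosen by their place in the pathway and by the level of GDF5 in EAE-induced mice on day 14, so the day 14 comparisons of EAE with either control are given for them as a description, without a test. Their other comparisons were tested.

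BMP ligands bind pairs of type I and type II receptors on the cell surface, and the activated type I receptor phosphorylates SMAD1, SMAD5 and SMAD9, which enter the nucleus with SMAD4. Among the genes they switch on are the ID genes, whose products block the DNA binding of basic helix-loop-helix (bHLH) factors, and SMAD6, which feeds back on the receptors. In skeletal muscle the pathway is known for sustaining fibre mass, and GDF5 is known as a ligand that denervated fibres produce.

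RNA-Seq was performed on whole EDL muscle, a fast muscle of the lower leg, from female wild type SJL/J mice in 6 groups of 5. EAE was induced by immunization with the myelin peptide PLP139-151 in Freund's complete adjuvant (CFA), and no pertussis toxin was given. OVA mice received ovalbumin in CFA, Ctrl mice were not immunized and so received no adjuvant, and muscles were taken on day 14 (peak of disease) or day 40 (chronic remission). The ages of the mice were not given in the sources used here. Day 14 and day 40 hold different mice, so a difference between the days cannot be told from one of age or batch. The labels number the replicates 1 to 5 in each group, give no batch and do not say that each replicate is a different animal. Each is called a mouse here, and p-values measure the spread between these samples, which may be technical. Levels are in RPKM (reads per kilobase of exon, scaled to library size), which allows a comparison between genes of different length.

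The libraries held an estimated 18.2 to 31.7 M reads assigned to genes. The summed level of 9 fast muscle fibre genes was 61609 to 74836 RPKM in EAE-induced mice of day 14, below every Ctrl mouse of that day (83275 to 111798) and overlapping the OVA mice (73231 to 95244). On day 40 it was 71099 to 93654 RPKM over the 3 groups. The libraries also differed in the slope of expression on transcript length, whose source was not tested. In log2 units per doubling of length it ran from -0.363 (Ctrl replicate 1 on day 14) to 0.274 (Ctrl replicate 3 on day 40). It was also low in OVA replicates 1 and 5 on day 14 (-0.310 and -0.240). Values with this slope removed (transcript length correction) are given where they matter. In whole muscle, fewer cells of a type and less RNA per cell cannot be told apart.

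GDF5 (Entrez 14563, GRCm38 chromosome 2, 155941023 to 155945367) was near the limit of detection in 5 of the 6 groups and abundant in 1. In EAE-induced mice on day 14 it was at 13.9, 26.4, 7.53, 2.58 and 19.7 RPKM in replicates 1 to 5, from 590, 1221, 554, 126 and 1000 reads. The 5 Ctrl mice of the same day had 0.0553, 0.0584, 0.156, 0.0965 and 0.0947 RPKM, which are 3 to 8 reads each. In the OVA mice of day 14 the level was 0.0717, 0, 0.0674, 0.0458 and 0.0882 RPKM, with at most 4 reads. No mouse of either control group came near the lowest EAE-induced mouse, and among the EAE-induced mice replicate 2 was highest and replicate 4 lowest.

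The mean GDF5 level on day 14 was 14.0 ± 9.46 RPKM (SD, n = 5) with EAE, 0.0922 ± 0.0407 in Ctrl and 0.0546 ± 0.0341 in OVA mice. The means stood in a ratio of 152 to Ctrl. On the log2(RPKM + 0.1) scale, which understates the change of a gene this low in the controls, the fold change was 5.84 (SE 0.50) against Ctrl and 6.16 (SE 0.50) against OVA. With these comparisons GDF5 was chosen, so no test is given.

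On day 40 GDF5 had 0 to 6 reads in every mouse. The EAE-induced mice had 0.0221, 0.0748, 0.119, 0.0376 and 0.134 RPKM (1 to 6 reads), OVA mice 0.0797, 0.0436, 0.0212, 0.0347 and 0, and Ctrl mice 0, 0, 0, 0.0190 and 0.0534. A mouse without a read may still hold up to 3 reads' worth, or 0.0408 to 0.0711 RPKM depending on its depth, by counting error alone. No mouse of day 40 had more than 6 reads, and the groups overlapped.

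Genes were tested across the table only where 1 of the groups compared had a mean over 3 RPKM, and a gene was called where the fold change exceeded 1.5 with an adjusted p under 0.05. GDF5 lay below this filter outside the day 14 EAE comparisons, and there the 10 mice were set against each other by an exact permutation test (two-sided), whose smallest possible p is 0.00794. In EAE-induced mice on day 40 it was higher than in Ctrl mice by 0.61 on the log2(RPKM + 0.1) scale (SE 0.22, exact p = 0.0317) and not distinguishable from OVA (0.37, SE 0.23, exact p = 0.159). Ctrl mice on day 40 lay below Ctrl mice on day 14 by 0.74 (-0.74, SE 0.18, exact p = 0.00794), with all 5 mice under all 5. These p-values are among 16 such tests of GDF5, SMAD6 and SMAD9 and are not adjusted, and each GDF5 difference rests on a few reads per mouse. When every gene was tested without the filter in limma, a linear model fitted to all genes, the adjusted p was 0.128 for EAE against Ctrl on day 40 and 0.142 for Ctrl between the days.

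**Figure D1:**
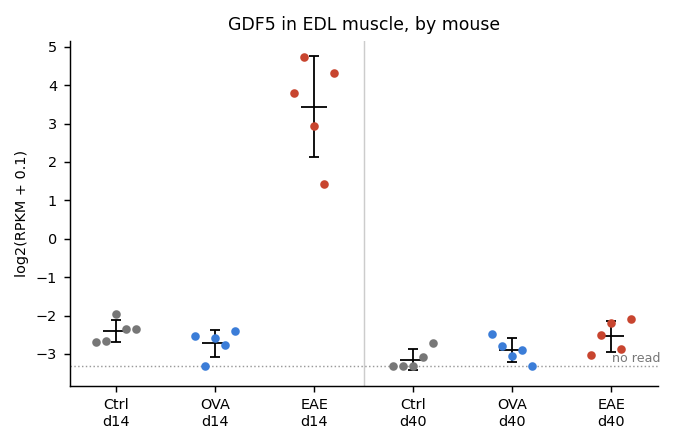
GDF5 level in each mouse, as log2(RPKM + 0.1) by group and day (d14, d40), with points for mice and bars for the mean and SD (n = 5). The dotted line marks a mouse without a read. The 5 EAE-induced mice of day 14, from 2.58 to 26.4 RPKM, stand above the 25 other mice, all at or under 0.156 RPKM.

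BMP4, the other ligand among the 10, was expressed at a few RPKM in every group. On day 14 it was at 4.40 to 6.66 RPKM in Ctrl, 3.97 to 4.97 in OVA and 3.86 to 6.15 in EAE-induced mice, and the 3 groups overlapped. On day 40 the EAE-induced mice had 5.98, 4.17, 4.87, 4.38 and 3.82 RPKM, against 5.35 to 6.90 in Ctrl and 5.21 to 7.13 in OVA mice. Of the 5 EAE-induced mice, 4 lay below every control mouse of that day and replicate 1 among them. The log2 fold change was -0.38 (SE 0.11, adjusted p = 0.0705 in limma) against Ctrl and -0.39 (SE 0.11, adjusted p = 0.115) against OVA, so BMP4 did not pass the test. Between the days, OVA mice of day 40 had more BMP4 than those of day 14 without overlap (0.47, SE 0.13, adjusted p = 0.0219 in limma), a change under the 1.5-fold required of a call, and in Ctrl mice the same difference was 0.18 (SE 0.13, adjusted p = 0.292).

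NOG encodes noggin, a secreted antagonist that binds BMP ligands. Its level on day 14 was 6.26 ± 0.858 RPKM in Ctrl, 5.82 ± 1.73 in OVA and 7.68 ± 0.741 in EAE-induced mice (SD, n = 5 each), and on day 40 it was 3.64 ± 0.930, 3.39 ± 0.475 and 4.66 ± 1.75. In Ctrl mice it was lower on day 40 than on day 14 by 0.79 on the log2 scale (SE 0.20, adjusted p = 0.00633 in limma). The Ctrl mice had 5.16 to 7.23 RPKM on day 14 and 2.31 to 4.91 on day 40, with no overlap. In OVA mice it was lower on day 40 by 0.72 (SE 0.20, adjusted p = 0.0183 in limma), with the lowest mouse of day 14 (3.89 RPKM) among those of day 40 (2.95 to 4.17).

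The difference of NOG between the days was called with the transcript length correction as well. It was -0.62 (SE 0.17, adjusted p = 0.0103 in limma) in Ctrl and -0.63 (SE 0.17, adjusted p = 0.0126) in OVA mice. The call in OVA mice was lost when day 40 replicate 3, day 14 replicate 1 or day 14 replicate 5 was left out, with fold changes from -0.85 to -0.61 over the mice left out in turn. Within day 40 NOG did not pass the test between EAE and Ctrl (0.32, SE 0.20, adjusted p = 0.302) or OVA (0.39, SE 0.20, adjusted p = 0.331). EAE replicate 1 was at 7.69 RPKM there and the other 4 mice at 3.37 to 4.41, and without it the difference from Ctrl was 0.13 (SE 0.17). In the day 14 description the fold change was 0.30 (SE 0.17) against Ctrl and 0.44 (SE 0.17) against OVA. With the transcript length correction it was 0.42 (SE 0.14) and 0.52 (SE 0.14).

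BMPR1A, a type I receptor of BMP ligands, was at 6.90, 12.4, 13.9, 13.9 and 14.4 RPKM in the Ctrl mice of day 14. The EAE-induced mice of that day had 19.0, 23.6, 19.8, 20.3 and 21.3 RPKM, all above every Ctrl mouse, while the OVA mice were at 14.5, 20.2, 18.8, 14.9 and 11.8 RPKM and overlapped both. The log2 fold change of EAE was 0.80 (SE 0.19) against Ctrl and 0.40 (SE 0.19) against OVA, given as a description. Ctrl mice of day 40 had 14.8 to 24.6 RPKM, a range that holds all 5 EAE-induced mice of day 14.

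BMPR1A was called higher in Ctrl mice of day 40 than in those of day 14 (0.71, SE 0.16, adjusted p = 0.00419 in limma). BMPR1A has the longest exon length of the 10 genes (5956 bases), and its level moved with the length slope of the libraries: the mouse with the lowest slope, Ctrl replicate 1 of day 14, had the lowest level of all 30. With the transcript length correction the difference between the days in Ctrl was 0.46 (SE 0.11, adjusted p = 0.0051), under the fold required of a call, and without Ctrl replicate 1 of day 14 it was 0.51 (SE 0.13, adjusted p = 0.0171). The day 14 fold change of EAE against Ctrl was 0.61 (SE 0.12) with the correction and 0.60 (SE 0.13) without that mouse. Neither OVA against Ctrl on day 14 (0.40, SE 0.19, adjusted p = 0.505) nor EAE against Ctrl (-0.27, SE 0.12, adjusted p = 0.159) or OVA (-0.13, SE 0.12, adjusted p = 0.573) on day 40 passed the test.

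**Figure D2:**
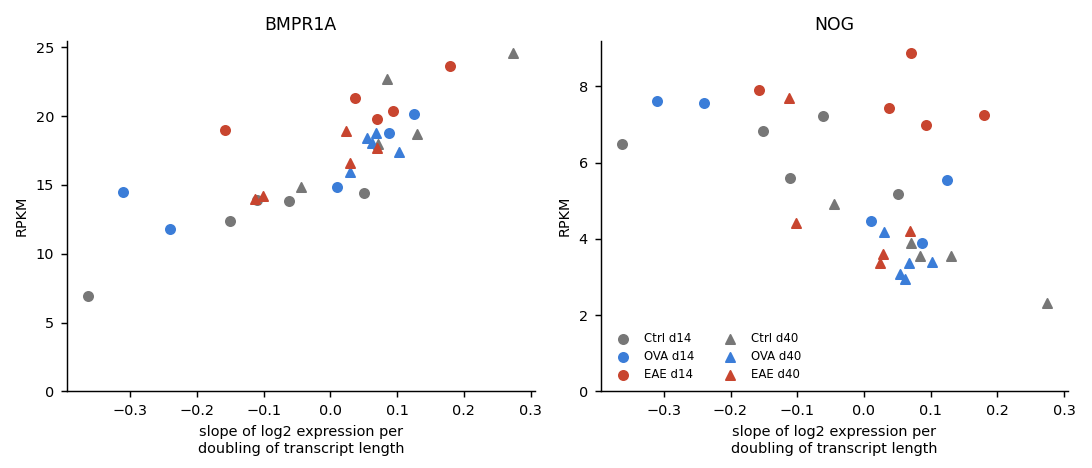
BMPR1A and NOG level in RPKM in each of the 30 mice, against the slope of log2 expression per doubling of transcript length in that library (circles for day 14, triangles for day 40). BMPR1A is lowest, at 6.90 RPKM, in the library with the lowest slope (-0.363). NOG is lowest, at 2.31 RPKM, in the library with the highest slope (0.274).

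None of the 3 SMAD genes was called in a comparison. SMAD1, a signal-carrying SMAD of the pathway, had group means of 5.37 to 6.21 RPKM, and the largest difference between any of the 6 group means was 0.21 on the log2 scale. SMAD9, the third SMAD of that kind, was at 0.0672 to 0.266 RPKM over all 30 mice, below the filter in every comparison. The lowest p of its 6 exact permutation tests was 0.175, in differences of -0.01 to 0.26 on the log2(RPKM + 0.1) scale.

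SMAD6, an inhibitory SMAD that BMP signals induce, was at 3.35 ± 0.317 RPKM in Ctrl, 2.82 ± 0.150 in OVA and 3.03 ± 0.515 in EAE-induced mice on day 14, and at 2.45 ± 0.344, 2.49 ± 0.146 and 2.39 ± 0.206 on day 40 (SD, n = 5 each). In Ctrl mice it was lower on day 40 than on day 14 in every mouse, by 0.44 on the log2 scale (-0.44, SE 0.11, adjusted p = 0.00631 in limma), a change under the fold required of a call. In OVA mice the difference was -0.17 (SE 0.05, exact p = 0.0159, permutation test). On day 40 the EAE-induced mice differed from Ctrl by -0.03 (SE 0.10, exact p = 0.802) and from OVA by -0.06 (SE 0.07, exact p = 0.397). SMAD6 was lower in every OVA than in every Ctrl mouse of day 14 (-0.24, SE 0.13, adjusted p = 0.574 in limma), which did not pass the test. The fold change of EAE on day 14 was -0.15 (SE 0.12) against Ctrl and 0.09 (SE 0.12) against OVA.

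The promoters of SMAD6 and ID2 are shown because they hold letters that SMAD proteins are known to bind, so that the levels of both genes can be read beside the sequence. RefSeq promoter windows (GRCm38, 250 bases before to 50 after the start that the RefSeq table uses) were at hand for 7 of the 10 genes: BMP4, BMPR1A, ID2, ID3, SMAD1, SMAD6 and SMAD9. For BMPR1A, SMAD6 and SMAD9 that start lies inside the outer bounds of the gene, so the window is not upstream of its outermost start. The palindrome GTCTAGAC was found in 1 of the 7, that of SMAD6 (chr9:64022010-64022309, minus strand), from base -4 to base 4 around that start, and in 0.213% of all 32851 windows. The GC-rich element GGCGCC was found in 3 of the 7 (BMPR1A, ID2 and SMAD9) and in 11.9% of all windows; that of ID2 (chr12:25096043-25096342, minus strand) lies at bases -231 to -226. Both motifs read the same on either strand and do not overlap here, and capitals mark them:
SMAD6: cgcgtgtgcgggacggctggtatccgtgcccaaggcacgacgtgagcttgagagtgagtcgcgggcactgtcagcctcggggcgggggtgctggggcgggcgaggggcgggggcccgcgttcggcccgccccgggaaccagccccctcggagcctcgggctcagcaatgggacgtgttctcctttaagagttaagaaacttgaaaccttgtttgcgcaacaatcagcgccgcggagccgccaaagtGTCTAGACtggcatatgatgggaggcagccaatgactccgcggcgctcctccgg
ID2: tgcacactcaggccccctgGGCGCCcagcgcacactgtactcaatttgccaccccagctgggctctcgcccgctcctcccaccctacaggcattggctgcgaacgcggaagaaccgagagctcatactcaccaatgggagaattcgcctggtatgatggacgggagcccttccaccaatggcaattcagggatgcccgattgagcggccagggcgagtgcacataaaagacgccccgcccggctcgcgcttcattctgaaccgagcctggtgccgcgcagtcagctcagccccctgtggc

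These matches are descriptions of letters, and binding was not measured.

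The ID genes, well-known transcriptional targets of BMP signals, were not called in any comparison under the reported settings. ID1 was at 23.5, 21.4, 28.6, 51.6 and 32.9 RPKM in Ctrl and at 50.3, 33.5, 27.7, 34.2 and 46.5 in OVA mice on day 14. EAE-induced mice had 96.5, 47.7, 45.3, 36.8 and 29.4 RPKM, so replicate 1 stood far above the rest and the other 4 lay within the range of the controls. The log2 fold change was 0.64 (SE 0.29) against Ctrl and 0.32 (SE 0.29) against OVA, and without replicate 1 it was 0.38 (SE 0.24) and 0.06 (SE 0.24). With the transcript length correction it was 0.91 (SE 0.28) against Ctrl and 0.50 (SE 0.28) against OVA. ID1 then met the rule for a call against Ctrl but not against OVA, which is given as a description.

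ID3 showed the same mouse apart, with 89.4 RPKM in EAE replicate 1 of day 14 and 44.2 to 48.5 in the other 4, against 35.1 to 52.6 in Ctrl and 32.5 to 58.6 in OVA mice. Its fold change of 0.25 (SE 0.20) against Ctrl was 0.06 (SE 0.16) without that mouse and 0.44 (SE 0.15) with the transcript length correction. Against OVA it was 0.28 (SE 0.20), 0.09 (SE 0.16) without that mouse and 0.40 (SE 0.15) with the correction. ID2 was at 13.9, 10.7, 8.48, 5.67 and 9.18 RPKM in the EAE-induced mice and at 8.13 to 10.3 in Ctrl, with a fold change of -0.02 (SE 0.18). Replicate 1 was the highest of the 5 EAE-induced mice for all 3 ID genes, whereas GDF5 was highest in replicate 2, which had 47.7 RPKM of ID1 and 48.5 of ID3. The library of replicate 1 stood apart in 2 other measures: its length slope was -0.157, against 0.0374 to 0.180 in the other 4, and its 10 most abundant genes held 15.9% of reads, the lowest share of all 30 libraries. The ID genes have the shortest exon lengths of the 10 genes (934, 1270 and 1278 bases). With each library's slope removed, the fold changes against Ctrl were 0.91 in ID1, 0.17 in ID2 and 0.44 in ID3. Each was above its value without the correction. The part of either measure in the ID levels of replicate 1 was not tested.

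On day 40 the ID genes differed from Ctrl by 0.02 (ID1, SE 0.20, adjusted p = 0.967 in limma), -0.03 (ID2, SE 0.14, adjusted p = 0.919) and 0.14 (ID3, SE 0.13, adjusted p = 0.489). The 95% interval of ID1 ran from -0.41 to 0.44, so changes within it could not be told from none. OVA mice of day 14 differed from Ctrl by 0.32 in ID1 (SE 0.29, adjusted p = 0.738 in limma), -0.18 in ID2 (SE 0.18, adjusted p = 0.769) and -0.03 in ID3 (SE 0.20, adjusted p = 0.966).

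**Figure D3:**
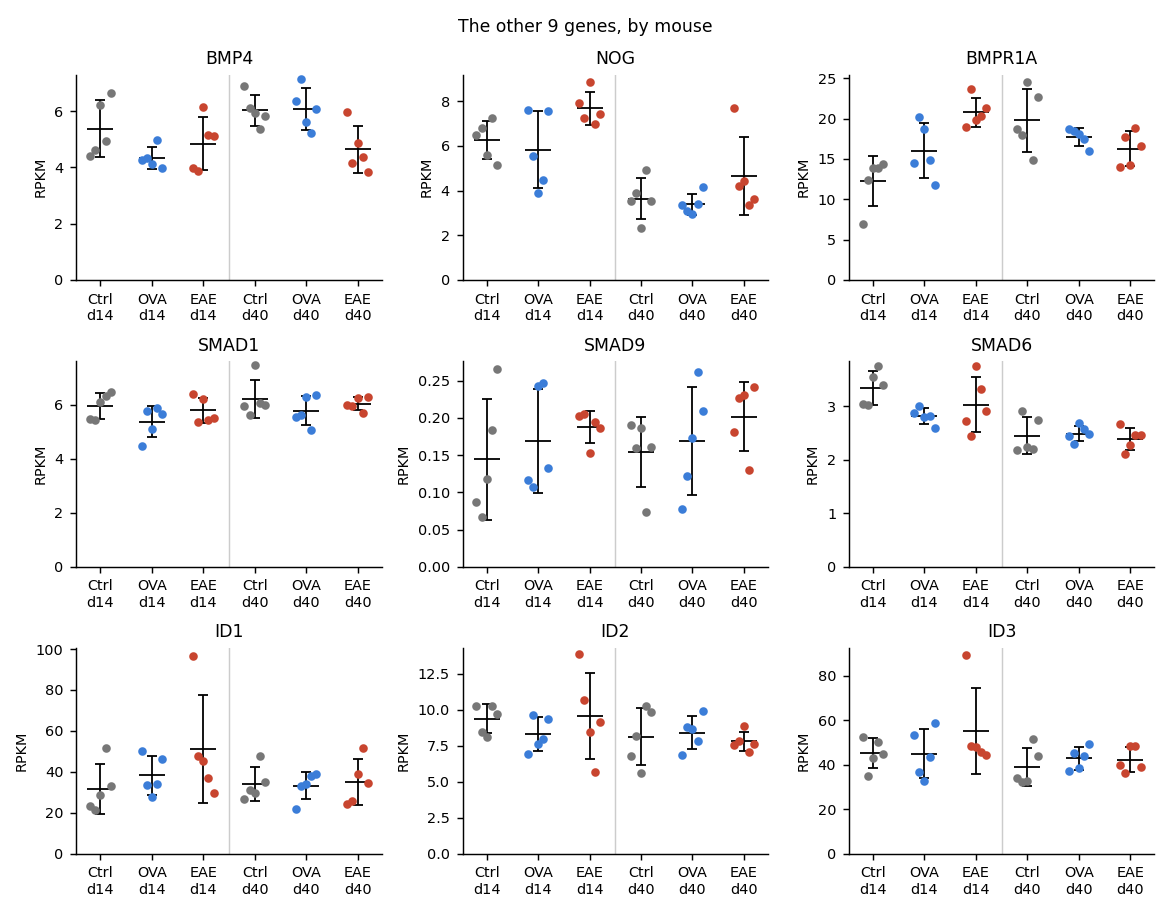
Level in RPKM, from 0, of the 9 genes other than GDF5 in each mouse, by group and day; points are mice and bars the mean and SD (n = 5). In ID1 and ID3 the highest point of EAE day 14 (96.5 and 89.4 RPKM) is the same mouse, and NOG is lower on day 40 than on day 14 in Ctrl and OVA mice.

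Counted together, 9 of the 10 genes passed the expression filter in EAE against Ctrl on day 14, and GDF5 passed through the EAE-induced mice alone. Of the 9, 2 were called higher (GDF5 and BMPR1A) and 0 lower, beside 14.6% of all 8771 genes tested called higher and 11.8% lower. Against OVA, 1 of 9 was called higher (GDF5) and 0 lower, beside 11.0% and 9.28% of 8674 genes. Median-of-ratios scaling turned the balance over all genes, from 1282 higher and 1036 lower to 965 and 1261 against Ctrl, and from 957 and 805 to 722 and 1004 against OVA, with 2 and 1 of the 10 genes called as before. With 1 mouse left out 2 to 3 of them were called against Ctrl. With the transcript length correction, or with all 30 mice in the fit, it was 3. Both counts restate the choice of the genes and nothing is read from them.

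In the comparisons that did not enter the choice, few of the genes were called. Of 8 tested in OVA against Ctrl on day 14, limma called 0, with 1 at an unadjusted p under 0.05, beside 0.142% of all genes called. On day 40 it called 0 of 7 in EAE against Ctrl (2 at an unadjusted p under 0.05; 0.460% of all genes called), 0 of 7 in EAE against OVA (1 unadjusted; 0.209%) and 0 of 7 in OVA against Ctrl (0 unadjusted; 0% of all genes). Between the days, 1 of 8 was called higher (BMPR1A) and 1 lower (NOG) in Ctrl mice, beside 5.02% and 4.35% of all genes, and 1 of 7 was called lower (NOG) in OVA mice, beside 3.97% called in either direction. The comparisons share their control mice and are given side by side only.

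The rest of the pathway was followed in 57 further genes: other ligands, receptors and co-receptors, antagonists, SMADs with their regulators, and targets. In EAE against Ctrl on day 14, 30 passed the filter, of which 8 were called higher and 3 lower (18 at an unadjusted p under 0.05), beside 14.6% and 11.8% of all genes; their median log2 fold change was 0.23 and that of all genes 0.11. Against OVA 4 of 31 were called higher and 2 lower (14 unadjusted), with a median of 0.10 beside 0.11. With median-of-ratios scaling the counts were 7 higher and 4 lower against Ctrl and 4 and 4 against OVA.

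No other ligand was called. Of 11, BMP5 and BMP6 passed the filter and neither was called (0.23, SE 0.32, adjusted p = 0.558 and 0.24, SE 0.18, adjusted p = 0.281 against Ctrl on day 14, in limma). BMP2 was at a mean of 1.55 to 2.35 RPKM in the 6 groups. GDF6, a close relative of GDF5, was at a mean of 0.366 RPKM with EAE on day 14 and of 0.0894 to 0.140 in the other groups, and BMP10 and GDF2 were without a read in every mouse. BMP6, at group means of 5.64 to 6.78 RPKM, and BMP4 were more abundant than BMP2, BMP3 and BMP5 in the means of all 6 groups. BMP5 was at group means of 3.01 to 4.84 RPKM.

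Among receptors and co-receptors 11 of 12 passed the filter, with 2 called higher and 1 lower against Ctrl on day 14. BMPR2, the type II receptor of BMP ligands, was at 4.16, 9.49, 4.64, 7.10 and 5.53 RPKM with EAE and at 0.839 to 4.28 in Ctrl (1.54, SE 0.46, adjusted p = 0.0132), but at 1.54 to 8.92 in OVA mice, against which it was not called (0.71, SE 0.47, adjusted p = 0.237). With the transcript length correction the BMPR2 fold change was 1.16 (SE 0.29) against Ctrl, still called, and 0.47 (SE 0.29) against OVA, not called. ACVR2A, a type II receptor that BMPs and activins share, was higher against both controls (1.23, SE 0.28, adjusted p = 0.00235 against Ctrl; 0.85, SE 0.28, adjusted p = 0.0251 against OVA), but the call against OVA was lost without EAE replicate 2 or OVA replicate 1 or 5 (0.73 to 0.96 over the mice left out in turn). ACVR2B, its relative, was lower against Ctrl (-0.74, SE 0.24, adjusted p = 0.0166) and not called against OVA.

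Antagonists moved both ways. FST (follistatin, which binds activins and some BMPs) was at 7.45 to 15.2 RPKM with EAE on day 14, above every Ctrl (4.14 to 5.88) and OVA mouse (3.51 to 5.55), with a log2 fold change of 1.07 (SE 0.18, adjusted p = 0.000203) against Ctrl. FSTL1, a follistatin-like secreted protein, was at 16.5 to 25.3 RPKM with EAE and at 52.1 to 63.3 in Ctrl and 43.4 to 53.2 in OVA mice (-1.49, SE 0.13, adjusted p = 1.16e-06 against Ctrl). TWSG1, a partner of chordin, was called higher against Ctrl (1.11, SE 0.42, adjusted p = 0.0395) and SMOC2, a matrix protein of a family that antagonizes BMPs, lower (-0.83, SE 0.10, adjusted p = 1.29e-05). The TWSG1 call was lost without Ctrl replicate 1, at 1.37 RPKM the lowest mouse (0.61), and without EAE replicate 2, 3, 4 or 5, with fold changes of 0.61 to 1.30 over the mice left out in turn. GREM1, another secreted antagonist, was at most at 0.0858 RPKM in any mouse.

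Among SMADs and their regulators, all 10 passed the filter, with 2 called higher against Ctrl on day 14 (SKIL, a corepressor of SMADs, 0.96, SE 0.22, adjusted p = 0.00269, and TOB1, which binds SMADs, 0.72, SE 0.17, adjusted p = 0.0024) and 0 against OVA. The TOB1 call was lost without Ctrl replicate 1 (0.54). SMAD5 and SMAD7 were at means of 7.19 and 3.26 RPKM with EAE on day 14 and of 6.62 and 2.63 in Ctrl, and neither was called.

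Among the other targets, TMEM100, a transmembrane protein induced by BMPs in endothelial cells, gave the largest rise of the 57 genes. It was at 53.3, 103, 50.5, 51.7 and 152 RPKM with EAE on day 14, against 5.29 to 12.2 in Ctrl and 4.92 to 12.8 in OVA mice, with log2 fold changes of 3.03 (SE 0.32, adjusted p = 5.39e-06) and 3.13 (SE 0.32, adjusted p = 5.71e-06). ATOH8, a bHLH factor that BMPs induce, was at 9.97, 11.7, 7.50, 5.08 and 9.44 RPKM, against 2.09 to 4.05 and 2.67 to 4.55 (1.38, SE 0.22, adjusted p = 0.000151 against Ctrl; 1.18, SE 0.22, adjusted p = 0.000633 against OVA). For both genes no control mouse reached the lowest EAE-induced mouse. HEY1 was lower against OVA (-0.61, SE 0.17, adjusted p = 0.0119), at 1.63 to 2.52 RPKM beside 2.48 to 4.08, and it was below the filter against Ctrl; the call was lost without EAE replicate 4 or 5 (-0.69 to -0.54). The other 7 targets, ID4 and MSX1 among them, did not pass the filter.

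**Figure D4:**
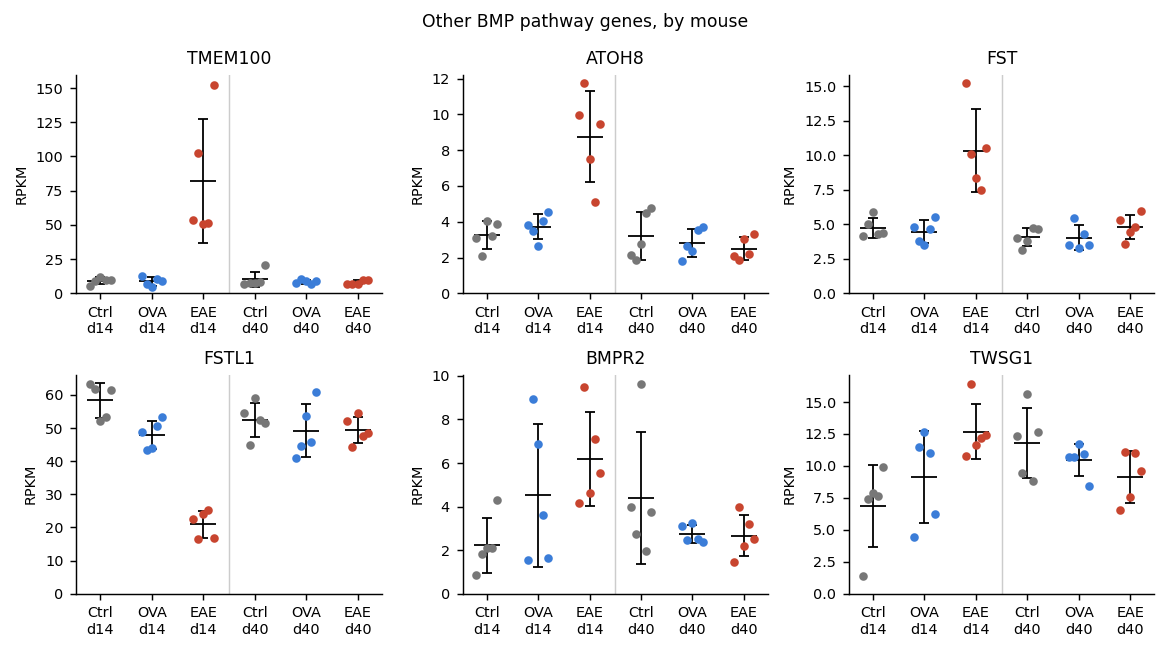
Level in RPKM, from 0, of 6 other pathway genes in each mouse, by group and day; points are mice and bars the mean and SD (n = 5). TMEM100, ATOH8 and FST are higher and FSTL1 lower in all 5 EAE-induced mice of day 14 than in any control mouse of that day, while BMPR2 and TWSG1 overlap with OVA mice.

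In the other comparisons 3 pathway genes were called. On day 40 limma called 0 of 29 in EAE against Ctrl (9 at an unadjusted p under 0.05, beside 0.460% of all genes called), 0 of 27 in EAE against OVA (3 unadjusted, beside 0.209%) and 0 of 29 in OVA against Ctrl (0 unadjusted, beside 0%). On day 14 it called 0 of 30 in OVA against Ctrl (3 unadjusted, beside 0.142%). In Ctrl mice 3 of 30 were higher and 0 lower on day 40 than on day 14, beside 5.02% and 4.35% of all genes: SKIL (1.02, SE 0.22, adjusted p = 0.00327), TWSG1 (0.99, SE 0.34, adjusted p = 0.0294) and ACVR2A (0.73, SE 0.24, adjusted p = 0.023). ACVR2A was not called with the transcript length correction (0.50, SE 0.18). Without Ctrl replicate 1 of day 14 the TWSG1 and ACVR2A differences were 0.49 and 0.41, and both calls were also lost without Ctrl replicate 3 or 5 of day 40, that of TWSG1 without replicate 1 of day 40 as well. All 3 were also called higher with EAE than in Ctrl on day 14, in a comparison that shares the Ctrl mice. In OVA mice 0 of 30 differed between the days (3 unadjusted).

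The difference between the effect of EAE on day 40 and that on day 14 was tested by an interaction term in limma over all 30 mice. Of 31 pathway genes tested against Ctrl, 11 had a lower effect on day 40 and 3 a higher one, beside 20.9% and 11.7% of 9013 genes; against OVA the counts were 5 and 1 of 31, beside 13.7% and 8.16% of 8935 genes. The change was -3.28 for TMEM100 (SE 0.42, adjusted p = 1.1e-06 against Ctrl), -1.67 for ATOH8 (SE 0.35, adjusted p = 0.00048), -2.10 for BMPR2 (SE 0.60, adjusted p = 0.00565) and 1.40 for FSTL1 (SE 0.16, adjusted p = 3.55e-07). On day 40 the 4 genes differed between EAE and Ctrl by -0.25 (SE 0.23), -0.29 (SE 0.26), -0.56 (SE 0.32) and -0.09 (SE 0.10). All 4 were called on day 14, and that comparison is part of the interaction, so a change of opposite sign was favoured in advance. The interaction was not run with the transcript length correction. Under it the BMPR2 difference between the days in Ctrl mice went from 0.90 to 0.40.

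**Figure D5:**
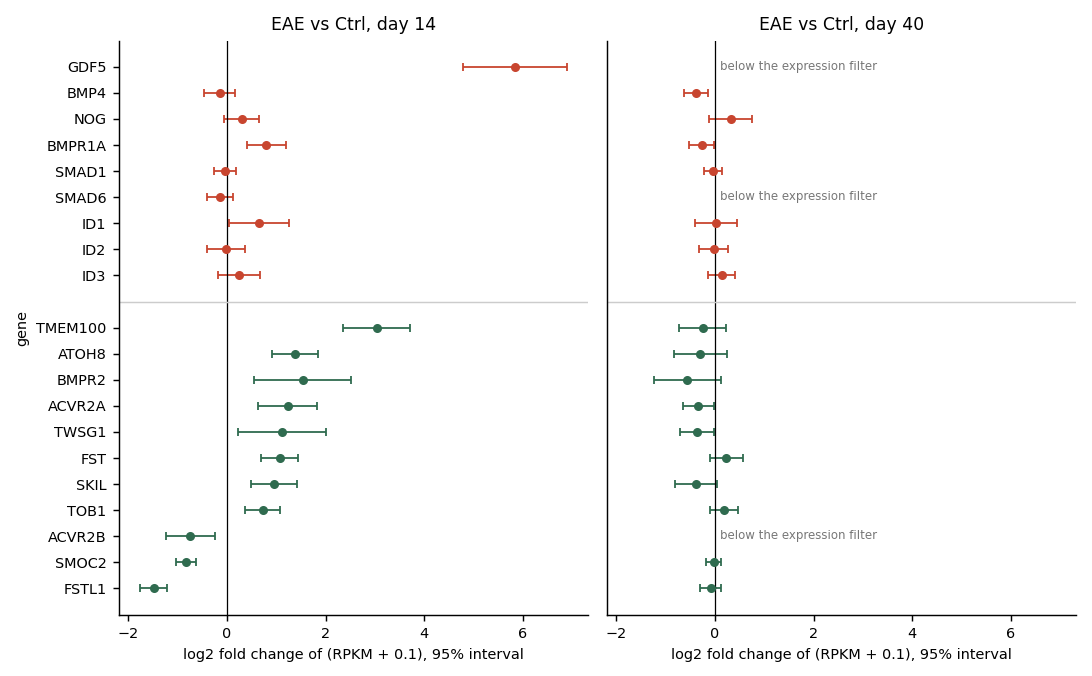
Log2 fold change of EAE against Ctrl with its 95% interval on day 14 (left) and day 40 (right), for the genes followed here (red, above the line) and the 11 other pathway genes called on day 14 (green). GDF5 stands apart at 5.84 on day 14, and on day 40 every tested gene shown lies between -0.56 and 0.32. The day 14 values of the red genes are a description, since the set was chosen with the GDF5 level of EAE-induced mice on that day known.

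The bHLH factors whose DNA binding ID proteins block were measured beside the ID genes. Of 7, 6 passed the filter and 4 were higher in EAE against Ctrl on day 14, beside 14.6% of all genes: MYOG (4.10, SE 0.36, adjusted p = 1.28e-06), MYOD1 (1.90, SE 0.28, adjusted p = 7.7e-05), MYF6 (1.72, SE 0.24, adjusted p = 5.13e-05) and TCF12 (0.80, SE 0.20, adjusted p = 0.00405). Against OVA 3 of 6 were higher, beside 11.0% of all genes, and TCF12 was not called (0.49, SE 0.20, adjusted p = 0.0621). This list was also chosen with earlier results of these data known, so its day 14 counts and p-values are a description. MYOG, which activates genes of denervated muscle, was at 273, 369, 112, 65.9 and 216 RPKM with EAE and at 8.41 to 11.4 in Ctrl. Its order among the 5 EAE-induced mice had replicate 2 highest and replicate 4 lowest, and so had that of GDF5, ATOH8 and CHRNA9. Other genes had other orders: TMEM100 was highest in replicate 5 and lowest in replicate 3, BMPR2 was highest in replicate 2 and lowest in replicate 1, and FST and the ID genes were highest in replicate 1. With 5 mice this is a description.

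Of 10 genes of denervation and atrophy, 9 passed the filter on day 14. In OVA against Ctrl of that day 7 passed, so the rest passed through the EAE-induced mice alone. Of the 9, 9 were higher against Ctrl (beside 14.6% of all genes) and 8 against OVA (beside 11.0%). The list was chosen with earlier results of these data known, so these counts and the day 14 p-values below are a description and no independent support. Among the 9 were CHRNG (3.01, SE 0.36), CHRNA1 (2.93, SE 0.22), RUNX1 (2.84, SE 0.33) and GADD45A (2.62, SE 0.38), with adjusted p-values of at most 0.00177 in limma against Ctrl. On day 40, 1 of 7 tested was lower in EAE against Ctrl, the ubiquitin ligase FBXO32 (-0.61, SE 0.14, adjusted p = 0.0312), which had been higher on day 14 (1.58, SE 0.33, adjusted p = 0.00123). FBXO30, a ubiquitin ligase known as a target that BMP signals repress in muscle, was among them at 0.76 (SE 0.17, adjusted p = 0.00177), with 4.59 to 6.49 RPKM in EAE-induced and 2.01 to 3.92 in Ctrl mice; against OVA it differed by 0.44 (SE 0.17, adjusted p = 0.047), under the fold required of a call.

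Markers of other cells of the muscle were measured beside these results, since a pathway gene may come from any of them. On day 14, 10 of 11 fibroblast markers were lower with EAE than in Ctrl (summed level 821 to 1183 RPKM against 1784 to 1961), as were 8 of 9 tested tendon markers (310.3 to 494 against 652 to 894), 6 of 10 macrophage markers (148 to 324 against 305 to 459) and 4 of 12 endothelial markers (139.9 to 185 against 168 to 227), beside 11.8% of all genes called lower. Against OVA 8 of 11, 7 of 8, 6 of 10 and 3 of 12 of these markers were lower, beside 9.28% of all genes. FSTL1 and SMOC2, which fell, moved with the fibroblast markers, while TMEM100 and GDF5 moved against all of these sums; the part of any cell type in these results was not tested. The tendon factor SCX, named here after its values were seen, was the exception in its list (2.12, SE 0.34, adjusted p = 0.000153 in limma). It was at 166, 83.9, 37.3, 35.8 and 56.3 RPKM in the EAE-induced mice. The highest was the mouse that was highest in ID1 and ID3, which describes 1 mouse. Of 7 pericyte and smooth muscle markers tested, 1 was higher against Ctrl (ABCC9), with a median log2 fold change of 0.19. Against OVA 0 of these 7 were called, and the median was -0.21. Of 6 Schwann cell markers 0 were called. Among 3 satellite cell markers tested against Ctrl, CDH15 was called higher (0.97, SE 0.14) and was the only 1 above 0. The median of the 3 was -0.30 and the lowest value -0.37, with 0 called lower. Against OVA their median was -0.12. PAX7, the defining satellite cell gene, was at 0.107 to 0.545 RPKM in all mice. On day 40 no marker of these lists was called in EAE against Ctrl, with summed fibroblast levels of 1340.4 to 1641 RPKM in EAE-induced and 1384 to 1568 in Ctrl mice.

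The genes whose 6 group means were most like those of GDF5 were sought among the 9040 other genes with a mean above 3 RPKM in any group. The measure was the root mean square difference of the centred group means on the log2(RPKM + 0.1) scale. Among the 5 nearest were CHRNA9, an acetylcholine receptor subunit (0.54), ANKRD1, a stretch-induced ankyrin repeat protein (0.74), and KRT18, an epithelial keratin (0.78), together with TRDJ1 (0.73), a T cell receptor gene segment that was listed at 0 in at least 1 mouse of each of the other 5 groups. None of the other pathway genes was among the 5 nearest. The group means of GDF5 spanned 6.59 log2 units, and the largest pathway rise against Ctrl on day 14 was 3.03 (TMEM100). A gene with a span so much smaller lies far from GDF5 by this measure, so nothing is read from their absence.

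NOG was the only other of the 10 genes whose group means spanned over 1 log2 unit (1.16). Among its 3 nearest genes were GPX4 (0.07), a glutathione peroxidase, and TOMM6 (0.08), a subunit of the mitochondrial import pore. Their exon lengths were 1516 and 749 bases and that of NOG 1695 bases. The median length slope of Ctrl libraries was -0.111 on day 14 and 0.0846 on day 40, and the NOG difference between the days was called with and without the correction for it. The other 8 genes had group means within 0.80 log2 units of each other.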

How the data were processed

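EDL muscle RNA of 30 mice was sequenced in 6 groups of 5. Per the labels and the study's methods, the authors mapped reads to the mouse genome (mm10), counted them per gene with featureCounts (Subread) and deposited normalized expression as RPKM. The deposited values are log2(RPKM + 1) with 0.0001 for no read, as low values gave whole reads on that scale for 99.0% of 15830 values (tolerance 0.05 reads), and were returned to RPKM. Counts were not used here, so the study's count test was replaced by limma 3.58.1 (R 4.3.3, lmFit and eBayes with a trend) on log2(RPKM + 0.1), fitted to the 15 mice of a day, or all 30 between days.

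Genes entered a test where 1 or more of the groups compared had a mean over 3 RPKM, and a call needed a Benjamini-Hochberg adjusted p below 0.05 over all of them and a fold change above 1.5. Genes below the filter were compared by exact permutation tests. Alternatives changed the pseudocount, filter, scaling, samples in the fit, replicate block and each mouse. The transcript length correction subtracts each library's own slope and was chosen after seeing the data.

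The 10 genes and all lists were chosen with earlier results of these data known, so the day 14 counts and p-values of the lists are no independent support. Named from each list were up to 4 called genes with the largest change and genes whose role the text needs; SCX, GDF6 and other genes beyond that were chosen after their values were seen. Of 21073 genes, 27 carry symbols turned into dates, and 20048 have an exon length. No pair of mice of a group had the same values. Limma was tested on simulated data. Intervals and floors cover counting error only where reads are meant. The strand setting of the counting is not given in the sources used here. Of the genes most like GDF5 and NOG, 1 each is not reported here.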

Additional observations from a re-analysis of the deposited data

Results flagged for a closer look

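Of 60 combinations of a gene and a group of 5 mice, 6 held a mouse whose distance from its neighbour took a share of the group's range above Dixon's critical value for 95%, which chance gives in about 1 in 20 groups of normally distributed values. The rule was applied to RPKM and not to the log2 values used for the tests, on which these shares differ. ID1 was at 96.5 RPKM in EAE replicate 1 of day 14 (next 47.7), and ID3 at 89.4 RPKM in the same mouse (next 48.5). SMAD1 was at 7.45 RPKM in Ctrl replicate 3 of day 40 (next 6.06). SMAD9 was lowest, at 0.0737 RPKM, in Ctrl replicate 4 of day 40 (next 0.159). BMPR1A was lowest, at 6.90 RPKM, in Ctrl replicate 1 of day 14 (next 12.4). NOG was at 7.69 RPKM in EAE replicate 1 of day 40 (next 4.41).

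The effect of EAE against Ctrl differed between the days, by the interaction in limma, in 9 of the pathway genes called on day 14 (0 were called on day 40). They were TMEM100 (-3.28), BMPR2 (-2.10), ATOH8 (-1.67), ACVR2A (-1.57), TWSG1 (-1.47), SKIL (-1.34), FST (-0.84), SMOC2 (0.81) and FSTL1 (1.40), as day 40 minus day 14 on the log2 scale. The day 14 comparison that picked them is part of the interaction. A change opposite to the day 14 effect was therefore favoured in advance, and these values are a description. Against OVA the effect differed in TMEM100 (-3.23), ATOH8 (-1.34), ACVR2A (-1.03), FST (-0.92) and FSTL1 (1.22), with the same limit.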

How the results depend on the processing

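Of the counts of called genes, 179 of 188 under other settings and 149 of 160 with 1 mouse left out stayed within 1.5 times the reported count, and the cause of the others was not tested. With the adjusted p alone, which drops the fold threshold by construction, other pathway genes numbered 17 in EAE against Ctrl on day 14 (11 reported), 1 in EAE against OVA on day 40 (0), 9 in Ctrl between the days (3) and 1 in OVA between the days (0), and the 10 genes numbered 2 in EAE against OVA on day 14 (1) and 2 in OVA between the days (1). The transcript length correction left 1 of the 10 genes between the days in Ctrl (2 reported), a fit of the compared groups alone left 1 other pathway gene there (3), and quantile normalization gave 1 in OVA between the days (0).

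With 1 mouse left out, other pathway genes ranged from 0 to 1 in EAE against OVA on day 40, from 1 to 5 in Ctrl between the days and from 0 to 1 in OVA between the days, and the 10 genes from 1 to 2 and from 0 to 1 in those comparisons between the days. Among values more than 1 SE from 0, directions turned for ID3 in EAE against Ctrl on day 40 (-0.0020), ID2 and ID3 in Ctrl between the days (0.031 and 0.035) with the transcript length correction, and SMAD1 in OVA between the days (-0.0045) with quantile normalization, none of them called. Values within 1 SE of 0, which were given no direction, changed sign with the length correction too, for example ID1 in EAE against Ctrl on day 40 (0.02 to -0.18) and in OVA between the days (-0.20 to 0.0034). The GDF5 fold change on day 14 was 5.52 to 6.35 against Ctrl with 1 mouse left out.

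Replicate numbers did not pair the mice throughout: 8 of 30 same-numbered pairs had a correlation of deviations over 0.1 (-0.728 to 0.699). The likeness was strongest in replicate 1 of day 14, with correlations of 0.616 (Ctrl and OVA), 0.511 (Ctrl and EAE) and 0.699 (OVA and EAE). Between OVA and EAE on day 14 the correlations of replicates 2 to 5 were also above 0 (0.441, 0.0427, 0.263 and 0.0203). The length slope of replicate 1 was the lowest of each day 14 group (-0.363 in Ctrl, -0.310 in OVA and -0.157 in EAE). The source of this likeness was not tested. With the replicate number as a block, counts of the 10 genes were 2 and 1 in EAE against Ctrl and OVA on day 14 and 2 and 1 between the days in Ctrl and OVA, those of other pathway genes 11, 6, 4 and 0, and 0 elsewhere.

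Depth limits GDF5 outside EAE on day 14, where each mouse held at most 8 reads.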
